A study of Mus musculus with 7 samples.

Results

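Podocytes are the epithelial cells that wrap the glomerular capillaries, and the 8 genes described here encode parts of their filtration slit and of the skeleton that holds it. They were chosen by symbol, namely Nphs1, Kirrel, Magi2, Cd2ap, Podxl, Ptpro, Synpo and Wt1, out of 53465 genes in a table of read counts from mouse kidney. All 8 were found in the table and all 8 passed the filter on low counts that left 15774 genes for testing. Kidney RNA came from 4 MRL/lpr mice given AZD1152 and from 3 MRL/lpr mice given vehicle, each mouse giving 1 poly(A)-selected library. MRL/lpr mice, in both groups, carry a defective Fas gene and develop a spontaneous lupus-like disease with nephritis. AZD1152 (barasertib) is converted in the body to an inhibitor of Aurora kinase B, a kinase of chromosome segregation. The dose, the schedule and the age of the mice are not given in the sources used here, and the tissue was whole renal tissue and not isolated glomeruli. The series text describes separate mice, so the p-values below measure the spread between mice.

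Podocytes send interlocking foot processes around the capillary, and neighbouring processes are bridged by the slit diaphragm, a thin junction that holds back plasma protein. Nephrin, the product of Nphs1, and its relative Neph1, the product of Kirrel, meet across the slit with their immunoglobulin domains and are tied to actin inside the cell by adaptors such as Cd2ap. Podocytes in the mature kidney divide little, and flattening of their foot processes with loss of protein into the urine is a hallmark of glomerular disease, lupus nephritis included. Cd2ap and Kirrel are also made by many other cells, Podxl by endothelium and Ptpro by some leukocytes, so in whole kidney the RNA of these 4 is not from podocytes alone.

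Start-site sequence was available for 5 of the 8 genes in the RefSeq table of promoters (GRCm38.p6), namely Nphs1, Kirrel, Magi2, Cd2ap and Ptpro. The 4 windows below are shown because Wt1, itself among the 8 genes, encodes a factor that binds G-rich DNA and is known to act on Nphs1, and because Magi2 and Kirrel had the largest estimates in either direction. Each is the 250 bases before the start, 5′ to 3′ on the gene's strand, with matches on either strand to the WT1/EGR-type motif GNGNGGGNG in capitals, where overlapping matches run together. The windows are chr7:30459808-30460057 (plus strand) for Nphs1, chr3:87174538-87174787 (minus strand) for Kirrel, chr5:19226796-19227045 (plus strand) for the outer and chr5:19907268-19907517 (plus strand) for the inner start of Magi2. The RefSeq starts of all 4 windows lie inside the spans that GENCODE gives these genes, which are the spans printed with the values. The windows of Nphs1 and of the inner start of Magi2 lie wholly inside those spans. The windows of Kirrel and of the outer start of Magi2 overlap them in part.
Nphs1: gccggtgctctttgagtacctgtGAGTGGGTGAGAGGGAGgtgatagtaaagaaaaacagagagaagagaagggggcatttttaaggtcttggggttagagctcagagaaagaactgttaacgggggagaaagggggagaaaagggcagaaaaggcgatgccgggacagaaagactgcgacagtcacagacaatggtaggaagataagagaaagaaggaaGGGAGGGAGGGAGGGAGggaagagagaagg
Kirrel: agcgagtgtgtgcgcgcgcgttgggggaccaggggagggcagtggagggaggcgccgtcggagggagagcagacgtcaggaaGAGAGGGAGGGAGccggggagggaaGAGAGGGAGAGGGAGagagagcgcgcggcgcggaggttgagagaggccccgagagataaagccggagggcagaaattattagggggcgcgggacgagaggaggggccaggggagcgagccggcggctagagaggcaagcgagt
Magi2 outer start: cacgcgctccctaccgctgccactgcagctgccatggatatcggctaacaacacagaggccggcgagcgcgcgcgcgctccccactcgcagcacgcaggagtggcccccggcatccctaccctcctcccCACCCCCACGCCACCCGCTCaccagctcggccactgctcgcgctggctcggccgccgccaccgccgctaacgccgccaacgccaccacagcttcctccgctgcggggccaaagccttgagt
Magi2 inner start: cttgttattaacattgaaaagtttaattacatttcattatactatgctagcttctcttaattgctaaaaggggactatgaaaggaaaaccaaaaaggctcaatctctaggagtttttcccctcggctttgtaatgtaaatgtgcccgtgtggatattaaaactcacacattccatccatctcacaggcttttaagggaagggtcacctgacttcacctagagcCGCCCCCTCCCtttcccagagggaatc
The motif matched 5 times in the Nphs1 window, 4 times in Kirrel, 3 and 2 times in the outer and inner Magi2 windows, 6 times in Cd2ap and 4 times in Ptpro, counting overlapping matches. Among all 32851 windows of this length 35.8% held at least 1 match. Base composition split the windows. Kirrel, the outer start of Magi2 and Cd2ap were CpG-rich, with 24, 29 and 31 CpG and 68.8%, 72.0% and 76.4% G or C, against a median of 6 CpG and 52.4% over all windows. Nphs1, Ptpro and the inner start of Magi2 had 5, 3 and 3 CpG. A motif match is a description of the letters and not a measured binding site.

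The question asked of the counts was whether podocyte transcripts differed between kidneys of treated and untreated lupus-prone mice. In edgeR's quasi-likelihood fit 0 of the 8 genes passed (Benjamini-Hochberg adjusted p under 0.05 over all genes), 2 of 8 (Magi2 and Wt1, both higher) had an unadjusted p under 0.05, DESeq2 called 1 (Magi2) and limma-voom called 0. Over all genes tested 7.83% were called, 3.02% higher and 4.81% lower with AZD1152, and 24.8% had an unadjusted p under 0.05. The groups overlapped in CPM (counts scaled to library size, with factors from the trimmed mean of M values, TMM) for all 8 genes, whereas 22.8% of all genes had groups that did not overlap. The median log2 fold change of the 8 genes was 0.01, beside -0.0006 over all genes tested, with 4 positive and 4 negative estimates. In whole tissue, fewer podocytes and less RNA per podocyte cannot be told apart.

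**Figure D1:**
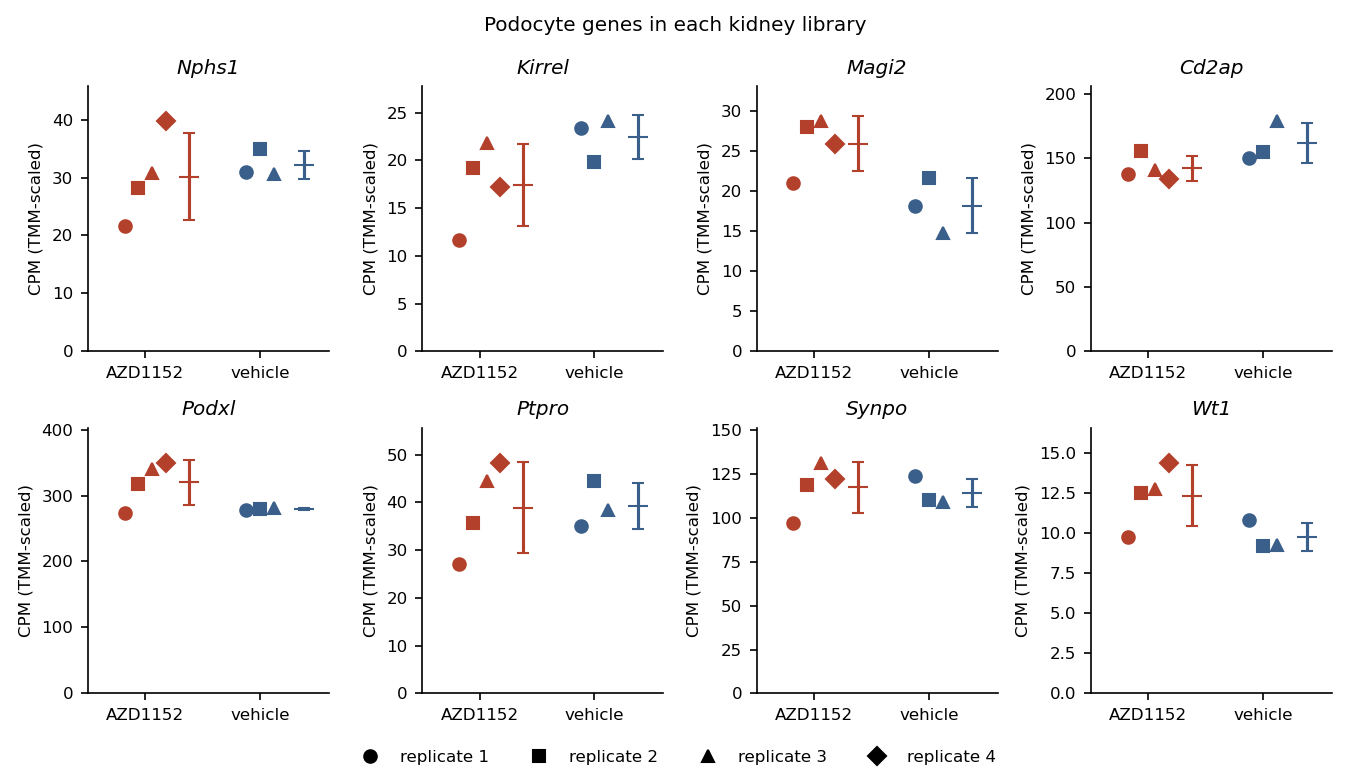
TMM-scaled CPM of each of the 8 genes (vertical axes, from 0) in the 4 AZD1152 and 3 vehicle libraries, with the mean and SD beside the points and symbols for the replicate number. The groups overlapped in every panel, and AZD1152 replicate 1 was the lowest AZD1152 library for 7 of the 8 genes.

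Library totals were 14692113 to 17036862 counts in AZD1152 kidneys and 16195173 to 16930859 in vehicle kidneys, and the floor of 3 counts amounts to 0.167 to 0.213 CPM. The least counted of the 8 genes was Wt1, with at least 161 counts in every library, so none was near this floor, which covers counting error only because amplified reads were not traced to single molecules. All 10 genes fixed as podocyte markers passed the filter, and their summed level was 598 to 862 CPM in AZD1152 kidneys and 664 to 704 CPM in vehicle kidneys. Mitochondrial genes took 9.41 to 11.6% of counts in AZD1152 kidneys and 8.03 to 9.002% in vehicle kidneys, without overlap, and the part of this difference in the results was not tested. Markers of other cell types moved between the groups. T cell markers fell in 6 of 10 genes (median log2 fold change -1.32) and macrophage markers in 7 of 10 (median -1.0003), while proximal tubule markers rose in 5 of 10 (median 0.48). Summed macrophage markers were 392 to 602 CPM in AZD1152 kidneys and 841 to 1178 CPM in vehicle kidneys, and summed T cell markers 47.9 to 71.5 CPM in AZD1152 kidneys and 96.7 to 150.1 CPM in vehicle kidneys. None of the 10 markers of glomerular endothelium, with 2 at an unadjusted p under 0.05, and none of the 8 of parietal epithelium, with 0, passed in edgeR. Of 10 markers of mesangium and pericytes 9 were tested and Ren1 alone rose. Of 10 distal nephron markers 3 rose, and none of 7 tested B and plasma cell markers or 3 tested mesothelial markers passed in edgeR, with 2 at an unadjusted p under 0.05 in each.

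Nphs1 (ENSMUSG00000006649; GRCm38 chromosome 7, 30458315 to 30487223, plus strand) encodes nephrin, the main strand of the slit diaphragm. It had 21.7, 28.2, 30.8 and 39.8 CPM in AZD1152 replicates 1 to 4 and 30.9, 34.9 and 30.5 CPM in vehicle replicates 1 to 3. The treated kidneys lay on both sides of the vehicle kidneys, with the lowest and the highest of all 7 values among them. Its log2 fold change was -0.09 ± 0.18 (SE; edgeR adjusted p = 0.795), with a 95% interval from -0.49 to 0.31 that holds changes of either sign. Without AZD1152 replicate 1 the estimate was 0.035. Of its exonic bases 11.8% are shared with Nphs1os and Rps12-ps4 on the other strand, and reads from the shared bases cannot be told apart.

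Kirrel (ENSMUSG00000041734; chromosome 3, 87078593 to 87174747, minus strand) encodes Neph1, which pairs with nephrin across the slit. It had 11.7, 19.2, 21.8 and 17.2 CPM in AZD1152 kidneys and 23.4, 19.9 and 24.2 CPM in vehicle kidneys. All but AZD1152 replicate 3 lay below every vehicle kidney, and replicate 1 was far below the others. The log2 fold change was -0.36 ± 0.19 (SE, 95% interval -0.79 to 0.07; edgeR adjusted p = 0.278), and it was -0.21 without AZD1152 replicate 1.

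Magi2 (ENSMUSG00000040003; chromosome 5, 19227036 to 20704792, plus strand) encodes a scaffold with several PDZ domains that binds nephrin from inside the cell. It had 21.1, 28.0, 28.8 and 25.9 CPM in AZD1152 kidneys and 18.2, 21.6 and 14.8 CPM in vehicle kidneys. Of the treated kidneys only replicate 1 fell within the vehicle range. Its estimate was the largest of the 8, a log2 fold change of 0.51 ± 0.16 (SE, 95% interval 0.16 to 0.87), and it did not pass over all genes (edgeR adjusted p = 0.0788, unadjusted p = 0.00939). The estimate was positive under all 15 alternative settings, from 0.37 with scaling to total counts to 0.66 without vehicle replicate 2. The adjusted p was 0.027 in DESeq2 and 0.0489 in edgeR without AZD1152 replicate 1, and it was 0.259 in edgeR without vehicle replicate 3. A stretch of 1.79% of its exonic bases is shared with Gm29254.

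Cd2ap (ENSMUSG00000061665; chromosome 17, 42792951 to 42876665, minus strand) encodes an adaptor, first known from T cells, that links nephrin to actin. It had 138, 156, 141 and 134 CPM in AZD1152 kidneys and 151, 155 and 179 CPM in vehicle kidneys. AZD1152 replicate 2 lay among the vehicle kidneys and the other treated kidneys lay below them. The log2 fold change was -0.18 ± 0.09 (SE, 95% interval -0.38 to 0.01; edgeR adjusted p = 0.232), and -0.10 without vehicle replicate 3, the kidney with the highest value. T cell markers fell beside it (median -1.32), and their part in the Cd2ap values was not tested.

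Podxl (ENSMUSG00000025608; chromosome 6, 31519488 to 31563981, minus strand) encodes podocalyxin, the charged sialoprotein that keeps foot processes apart. It had 273, 318, 339.7 and 349.9 CPM in AZD1152 kidneys and 278, 280.1 and 281 CPM in vehicle kidneys. The vehicle kidneys were nearly equal, and all treated kidneys except replicate 1 were above them. The group means were 320.2 ± 33.9 CPM with AZD1152 (SD, n = 4) and 279.6 ± 1.71 CPM with vehicle (SD, n = 3). The log2 fold change was 0.20 ± 0.10 (SE, 95% interval -0.02 to 0.41; edgeR adjusted p = 0.246). It was 0.26 without AZD1152 replicate 1 and 0.044 with scaling to total counts.

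Ptpro (ENSMUSG00000030223; chromosome 6, 137252319 to 137463233, plus strand) encodes a receptor-type tyrosine phosphatase of the podocyte's apical surface. It had 27.0, 35.7, 44.5 and 48.3 CPM in AZD1152 kidneys and 35.0, 44.5 and 38.4 CPM in vehicle kidneys. As with Nphs1, the treated kidneys spread to either side of the vehicle kidneys. The log2 fold change was -0.02 ± 0.18 (SE, 95% interval -0.43 to 0.40; edgeR adjusted p = 0.971), and its sign turned without AZD1152 replicate 1 (0.12), AZD1152 replicate 2 (0.014) or vehicle replicate 2 (0.085). Macrophage markers fell beside it (median -1.0003), and their part in the Ptpro values was not tested.

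Synpo (ENSMUSG00000043079; chromosome 18, 60593973 to 60660142, minus strand) encodes synaptopodin, an actin-binding protein of the foot process. It had 96.8, 119, 131 and 122 CPM in AZD1152 kidneys and 124, 110.0 and 109 CPM in vehicle kidneys. AZD1152 replicate 1 was the lowest and replicate 3 the highest of all 7 kidneys, and the other treated kidneys lay between the vehicle values. The log2 fold change was 0.04 ± 0.11 (SE, 95% interval -0.20 to 0.28; edgeR adjusted p = 0.864), and it was -0.11 with scaling to total counts.

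Wt1 (ENSMUSG00000016458; chromosome 2, 105126529 to 105173616, plus strand) encodes the zinc-finger transcription factor that maintains podocyte identity. It had 9.74, 12.5, 12.7 and 14.4 CPM in AZD1152 kidneys and 10.8, 9.19 and 9.27 CPM in vehicle kidneys. Again only replicate 1 of the treated kidneys fell within the vehicle range. The log2 fold change was 0.34 ± 0.15 (SE, 95% interval 0.00097 to 0.67; edgeR adjusted p = 0.201, unadjusted p = 0.0495), and 0.43 without AZD1152 replicate 1 (adjusted p = 0.0885). Wt1 is also made by mesothelium. The 7 mesothelial markers summed to 1.73 to 3.19 CPM in AZD1152 kidneys and 3.31 to 6.82 CPM in vehicle kidneys. Of the 3 that were tested 0 passed in edgeR, 1 was higher and 1 lower at an unadjusted p under 0.05, and the median log2 fold change was -1.07. In that list Bnc1 had 0 counts in every library, and Msln and Muc16 averaged 0.0928 and 0.00832 CPM over all libraries. The part of mesothelium in the Wt1 values was not tested.

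**Figure D2:**
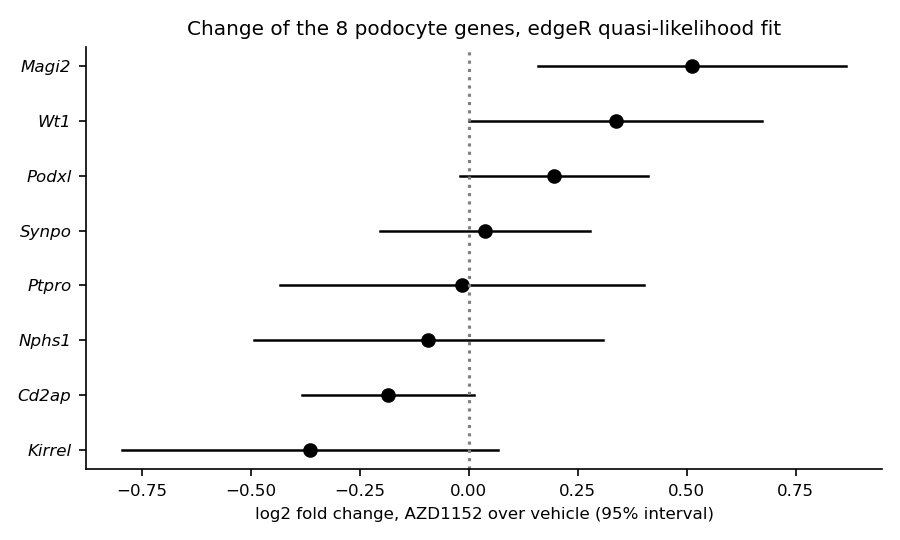
Log2 fold change of each gene, AZD1152 over vehicle (horizontal axis; points are edgeR estimates and lines 95% intervals not adjusted for the number of genes). Magi2 at 0.51 and Wt1 at 0.34 had intervals above 0, Kirrel at -0.36 had the lowest estimate, and none of the 8 passed the adjusted threshold.

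Per length of exon, Podxl was the most abundant of the 8 genes. On the scale of RPKM (CPM per kilobase of exon), Podxl averaged 58.3 in AZD1152 and 50.9 in vehicle kidneys, followed by Synpo with 12.3 and 11.98 and Cd2ap with 8.97 and 10.2 RPKM. Ptpro averaged 5.79 and 5.84 RPKM, Nphs1 4.55 and 4.85, Kirrel 2.34 and 3.01, Magi2 2.29 and 1.602, and Wt1 1.99 and 1.57 RPKM in AZD1152 and vehicle kidneys. From Podxl down to Kirrel each gene was above the next in 7 of 7 libraries. Kirrel was above Magi2 in 6 of 7 and Magi2 above Wt1 in 4 of 7 libraries, so the order of the last neighbours did not hold in every library. These levels used the length of all annotated exons of a gene, and exon use was not measured.

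Within the treated group the podocyte genes varied from mouse to mouse more than in the vehicle group for 6 of the 8 genes by the ratio of the highest to the lowest kidney. That ratio was 1.83 in AZD1152 and 1.14 in vehicle kidneys for Nphs1, 1.87 and 1.22 for Kirrel, 1.79 and 1.27 for Ptpro, and 1.28 and 1.01 for Podxl. Magi2 (1.37 and 1.46) and Cd2ap (1.16 and 1.19) did not share this. AZD1152 replicate 1 was the lowest AZD1152 kidney for 7 of the 8 genes, all but Cd2ap, and its log2 CPM lay below the group mean in 8 of 8, with deviations of -0.54 to -0.04 and a mean of -0.33. The other treated kidneys had mean deviations of 0.04, 0.14 and 0.14, and the vehicle kidneys 0.003, 0.03 and -0.03. The share of all tested genes that were lowest, or below the group mean, in AZD1152 replicate 1 was not computed. These counts therefore describe the 8 genes and do not set them apart from other genes. With 4 kidneys in one group and 3 in the other, the larger group has more room for a wide ratio. The share of all tested genes with a wider ratio in AZD1152 kidneys was not computed. For each of the 6 genes AZD1152 replicate 1 was the lowest treated kidney, so 1 library set the lower end of each ratio.

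**Figure D3:**
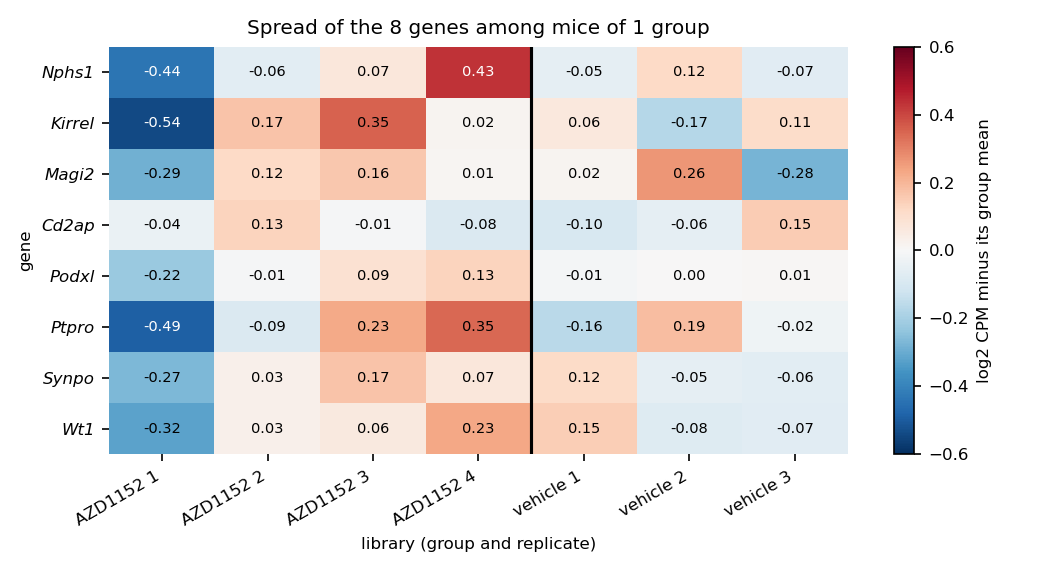
Log2 CPM of each gene (rows) in each library (columns) minus the mean of its group, with the value printed in each cell. AZD1152 replicate 1 was below its group mean for all 8 genes, most for Kirrel (-0.54) and Ptpro (-0.49), while Cd2ap hardly moved (-0.04).

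Markers of other cell types deviated in either direction in the same kidney. In AZD1152 replicate 1 the 10 markers of glomerular endothelium had a mean deviation of -0.02 from the group mean, the 9 tested markers of mesangium and pericytes -0.09 those of parietal epithelium -0.05 and those of proximal tubule -0.01, beside -0.29 for the 10 podocyte markers, of which 6 are among the 8 genes. Macrophage markers had a mean deviation of -0.40, with 9 of 10 below the group mean, further than the podocyte markers. T cell markers had 0.39, B and plasma cell markers 1.09, distal nephron markers 0.09 and the 3 tested mesothelial markers 0.60. The low kidney was thus not low for podocyte genes alone, and the part of these cells in it was not tested.

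The genes whose kidney-to-kidney pattern was most like the mean of the 8 were ranked by Pearson r over 7 libraries after the group means were removed, among 13208 genes. The 10 closest were C1qtnf7, Ugcg, Rab7b, Ankrd13a, Tmem268, Igf2bp2, C1qtnf1, Alg14, Cap1 and Ranbp1 (r from 0.996 to 0.977), and none is in the lists of podocyte genes. The macrophage markers Fcgr1 and Adgre1 ranked 127 and 193 (r = 0.891 and 0.863). Without AZD1152 replicate 1 all 10 genes had a lower r, from 0.659 (Alg14) to 0.922 (C1qtnf7) over 6 libraries. The ranking was not redone without that kidney. Among the 8 genes themselves, Podxl was closest to the mean of the other members (r = 0.972). Cd2ap had r of -0.092, and the rest had 0.580 (Magi2) to 0.863 (Synpo). This likeness among the 8 genes rests largely on AZD1152 replicate 1. Without it Podxl had r of 0.796, Ptpro 0.462, Nphs1 0.304, Synpo 0.178 and Wt1 0.058 over 6 libraries. Magi2 then had -0.204, Kirrel -0.583 and Cd2ap -0.899.

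Ratios within a library do not depend on library scaling and compare podocyte genes with each other. Relative to Nphs1, Magi2 had 0.969, 0.991, 0.934 and 0.651 counts per Nphs1 count in AZD1152 kidneys and 0.588, 0.619 and 0.484 in vehicle kidneys. Wt1 had 0.448, 0.442, 0.412 and 0.361 in AZD1152 kidneys and 0.348, 0.264 and 0.304 in vehicle kidneys. In both, every treated kidney was above every vehicle kidney. The other 5 ratios overlapped, so 2 of 7 did not, beside 8.71% of all genes set against Nphs1. The choice of denominator mattered. Relative to Podxl the ratios of Synpo, Cd2ap and Kirrel did not overlap between the groups and were lower with AZD1152 (3 of 7, beside 21.0% of all genes), while those of Magi2 and Wt1 overlapped. For Synpo the groups barely parted, with 0.3869 in AZD1152 replicate 3 and 0.3882 in vehicle replicate 3. With Synpo as denominator 4 of 7 did not overlap, beside 13.1% of all genes. Of these, Podxl, Wt1 and Magi2 were higher and Kirrel lower with AZD1152. Kirrel had 0.0427, 0.0604, 0.0641 and 0.0492 counts per Podxl count in AZD1152 kidneys and 0.0841, 0.0709 and 0.0860 in vehicle kidneys.

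**Figure D4:**
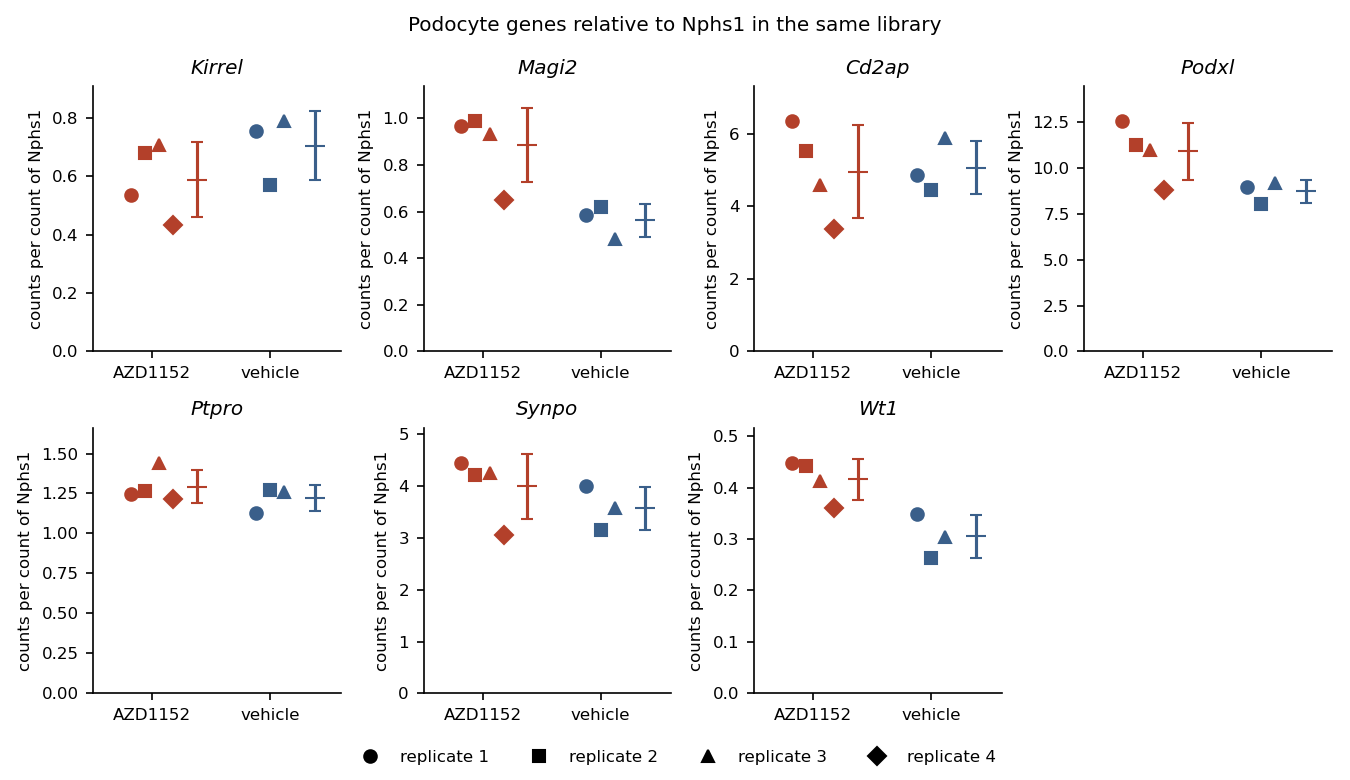
Counts of 7 genes per count of Nphs1 in the same library (vertical axes, from 0) for AZD1152 and vehicle kidneys, with mean and SD beside the points. Magi2 and Wt1 had every AZD1152 kidney above every vehicle kidney, and the other 5 genes overlapped.

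Further genes of the glomerular filter were described through 5 lists of 72 genes, none of them among the 8. Of 69 tested, 3 rose and 7 fell (14.5% called, beside 7.83% of all genes), with a median log2 fold change of -0.05. The calls were made over all genes tested. The split depended on the scaling and the tool, with 0 higher and 10 lower after scaling to total counts and 7 higher and 8 lower in DESeq2.

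Among 17 slit diaphragm partners 15 were tested, 2 rose and 3 fell, with a median of 0.18. Magi1, a scaffold related to Magi2, rose to 41.1 ± 1.38 CPM in AZD1152 kidneys (SD, n = 4), against 32.3 ± 1.09 CPM in vehicle kidneys (SD, n = 3; log2 fold change 0.35 ± 0.07 SE, edgeR adjusted p = 0.0252). Ddn, which encodes dendrin, a partner of nephrin, rose to 10.3 ± 1.35 CPM, against 6.63 ± 0.363 CPM with vehicle (0.63 ± 0.14, edgeR adjusted p = 0.0339). Ddn shares 4.68% of its exonic bases with B130046B21Rik. With scaling to total counts, which moved the median of all genes to -0.151, neither Magi1 nor Ddn passed (edgeR adjusted p = 0.12 and 0.0629), nor did Sema3g, the other list gene that rose. Fat1, a giant cadherin found at the slit, fell to 88.0 ± 8.38 CPM, against 125 ± 14.6 CPM with vehicle (-0.51 ± 0.10, edgeR adjusted p = 0.0233). Fat1 shares 3.11% of its exonic bases with Gm2366. Fyn, a kinase that phosphorylates nephrin, and Iqgap1, an actin scaffold, also fell, with log2 fold changes of -0.53 ± 0.14 and -0.34 ± 0.08 (edgeR adjusted p = 0.048 and 0.0447). Both are also abundant in leukocytes, whose markers fell (medians -1.32 for T cells and -1.0003 for macrophages), and their part was not tested.

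In the list of the foot process cytoskeleton 0 of 17 tested genes rose and 1 fell, with a median of -0.06. The gene that fell was Anln, an actin-binding protein of the cytokinetic ring as well as of podocytes, with 1.38 ± 0.267 CPM in AZD1152 kidneys and 3.64 ± 0.554 CPM in vehicle kidneys (log2 fold change -1.39 ± 0.23 SE, edgeR adjusted p = 0.0149). Ezr (ezrin, which ties podocalyxin to actin) and Arhgdia, which encodes an inhibitor of small GTPases, were the most abundant per length, with 166 and 134 RPKM in AZD1152 and 163 and 139.5 RPKM in vehicle kidneys. Ezr had a log2 fold change of 0.02 ± 0.08 (SE; edgeR adjusted p = 0.893), which was -0.13 with scaling to total counts, and Arhgdia had -0.06 ± 0.07 (edgeR adjusted p = 0.677).

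In the list of 10 genes for podocyte transcription factors and the cell cycle inhibitor Cdkn1c, 0 passed in edgeR, and the median was 0.07. An unadjusted p under 0.05 was reached by 5 of them, 3 higher and 2 lower with AZD1152. Klf15, a podocyte differentiation factor that is also made in tubules, had 155 ± 14.9 CPM in AZD1152 kidneys and 106 ± 25.4 CPM in vehicle kidneys (0.54 ± 0.16, edgeR adjusted p = 0.0661). Zhx2, a zinc-finger and homeobox factor, had 0.33 ± 0.11 (edgeR adjusted p = 0.0987).

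In the list of basement membrane and podocyte surface genes 1 of 18 rose and 1 fell, with a median of -0.004. Col4a3, a type IV collagen chain that podocytes lay down in the basement membrane, fell to 209 ± 17.5 CPM in AZD1152 kidneys (SD, n = 4), against 280.5 ± 16.6 CPM in vehicle kidneys (SD, n = 3; -0.42 ± 0.09 SE, edgeR adjusted p = 0.0263). Col4a3 shares 5.65% of its exonic bases with C430014B12Rik. Sema3g, a secreted semaphorin, rose to 160.2 ± 22.9 CPM, against 113 ± 6.83 CPM with vehicle (0.50 ± 0.11, edgeR adjusted p = 0.0348), and it did not pass with scaling to total counts (0.35, edgeR adjusted p = 0.055). Vegfa, the growth factor for glomerular endothelium, which tubules make too, and Itgb1, the beta chain of the integrin that anchors podocytes, had 0.30 ± 0.09 and -0.18 ± 0.09 (SE; edgeR adjusted p = 0.0802 and 0.27).

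In the list of podocyte stress and parietal cell activation 0 of 9 tested genes rose and 2 fell, with a median of -0.35. Cd44, a hyaluronan receptor of activated parietal cells and of leukocytes, had 12.7 ± 2.40 CPM in AZD1152 kidneys and 36.0 ± 9.52 CPM in vehicle kidneys (-1.504 ± 0.20 SE, edgeR adjusted p = 0.00951). Vim, an intermediate filament gene of podocytes, stroma and leukocytes, had 98.5 ± 23.0 CPM in AZD1152 kidneys and 161 ± 5.02 CPM in vehicle kidneys (-0.71 ± 0.17 SE, edgeR adjusted p = 0.0399). Macrophage markers fell with both, and their part was not tested. Ctsl, the gene of a lysosomal protease, had 0.11 ± 0.10 (edgeR adjusted p = 0.58), and -0.047 with scaling to total counts. It shares 26.9% of its exonic bases with Gm47123 and Gm49230.

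**Figure D5:**
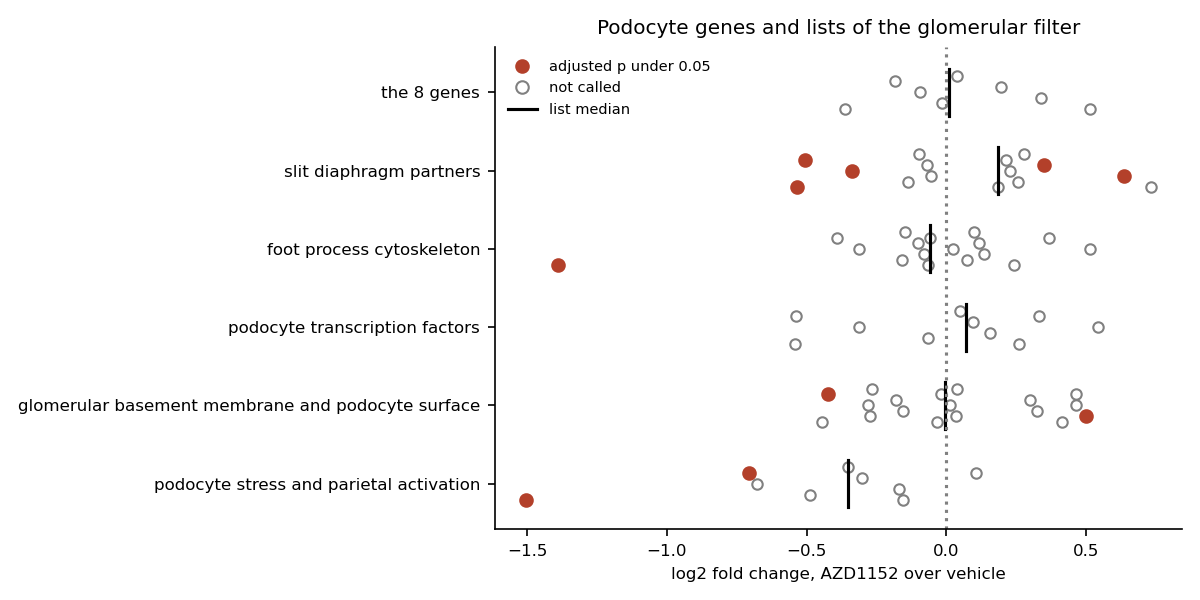
Log2 fold change (AZD1152 over vehicle) of each tested gene in the 8 podocyte genes and 5 lists of the glomerular filter, with a black line at each median. Filled points had an adjusted p under 0.05, which were 0 of the 8 genes and 10 of 69 list genes.

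Each list call but that of Cd44 was lost without at least 1 of the libraries. Of the 10 called list genes Cd44 alone was called without any 1 of the 7 libraries. The number called was 1 without vehicle replicate 3, 2 without vehicle replicate 1 and 3 without AZD1152 replicate 4, and the number called over all genes was 223, 398 and 443 in those fits, against 1235 with all libraries. Of the 8 podocyte genes 0 were called in 6 of these 7 fits and 1, Magi2, without AZD1152 replicate 1.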

How the data were processed

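Read counts per gene were analysed for kidneys of 4 AZD1152 and 3 vehicle mice, grouped by sample title. The authors deposited whole-number counts without normalization. Per the submitters' processing notes, CASAVA and HISAT2 2.0.5 were used with build GRCm38, and DESeq2 and DESeq were named. The counter, strand setting and annotation release are not given in the sources used here. Reads from genes that overlap therefore cannot be told apart. GENCODE mouse release 21 (GRCm38) named 53360 of 53465 genes and gave coordinates and exon lengths. No pair of the 7 libraries agreed within sampling noise (over 21 pairs, chi-square per degree of freedom was 10.8 or more).

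After a filterByExpr filter and TMM scaling, counts were tested on group alone in edgeR 4.0.16 (R 4.3.3, limma 3.58.1, DESeq2 1.42.0), two-sided, with Benjamini-Hochberg adjustment over 15774 genes and a threshold of 0.05. Standard errors are the log2 fold change over the square root of F. Log2 CPM used a prior count of 2, and likeness needed a mean of 2 CPM. The fit was tested on simulated counts with known changes. The podocyte genes, lists and tests were chosen with earlier results of these data known, and the ratios were added after the values were seen. Named list genes were those called, otherwise the 3 with the smallest p, plus the 2 highest per length. Some genes that these rules name are not reported here. Alternatives were RLE, upper-quartile and total-count scaling, no filter, a stricter filter (CPM of 1 in 3 libraries), DESeq2, limma-voom, each library left out, and a replicate block.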

Additional observations from a re-analysis of the deposited data

Results flagged for a closer look

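In 3 of 57 values examined, 1 AZD1152 kidney stood apart from the other 3 by Dixon's ratio, the gap to the nearest kidney over the range of the group, where chance alone puts about 5% of groups past the critical value. Magi2 had 0.651 counts per Nphs1 count in AZD1152 replicate 4 and 0.934 to 0.991 in the other AZD1152 kidneys (ratio 0.832), and replicate 4 was also the AZD1152 kidney with the highest Nphs1 level, 39.8 CPM. Even so, it was above the vehicle kidneys, which had 0.484 to 0.619. Cd44 had 16.3 CPM in AZD1152 replicate 3 and 11.3 to 11.8 CPM in the other AZD1152 kidneys (ratio 0.902), against 25.5 to 44.1 CPM in vehicle kidneys, and its log2 fold change was -1.66 without that kidney (edgeR adjusted p = 0.0147). Iqgap1 had 163 CPM in AZD1152 replicate 2 and 187 to 188 CPM in the other AZD1152 kidneys (ratio 0.949), against 212 to 244 CPM in vehicle kidneys. Without that kidney its log2 fold change was -0.30 and it did not pass (edgeR adjusted p = 0.0758).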

How the results depend on the processing

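Of 120 recomputed estimates for the 8 podocyte genes (15 settings each), 112 kept sign and call, 6 turned sign and 2 gained a call, both for Magi2. The turned estimates were small: Synpo -0.11 with total counts and -0.031 without AZD1152 replicate 3, Nphs1 0.035 and Ptpro 0.12 without AZD1152 replicate 1, Ptpro 0.014 without AZD1152 replicate 2 and 0.085 without vehicle replicate 2. With a library left out, Nphs1 ranged from -0.26 to 0.035, Ptpro from -0.15 to 0.12, Synpo from -0.031 to 0.12 and Ezr from -0.013 to 0.058. Among list genes Ezr was -0.13 and Ctsl -0.047 with total counts, and Ezr -0.012 without AZD1152 replicate 2 and -0.013 without vehicle replicate 1. The number of the 8 genes called was 1 with DESeq2 and 0 to 1 with a library left out. The count over all genes was 2082 with DESeq2 and 223 to 1094 with a library left out, and that of list genes 1 to 9 with a library left out. Total counts gave 232 higher and 1482 lower genes (13.5% higher), against 476 and 759 (38.5% higher) with TMM. With the replicate block 209 genes, 2 list genes and 0 of the 8 were called. Same-numbered mice had correlations of -0.288, 0.209 and -0.119, and the other pairs -0.232 to 0.299. So few values cannot decide whether the numbers pair the mice, and the sample titles state no pairing. The ratios that did not overlap were 3 of 7 with Podxl and 4 of 7 with Synpo as denominator, and 2 to 4 with Nphs1 and a library left out. The cause of these shifts was not tested.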
